A study of Homo sapiens with 4 samples.

Results

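The 43 genes described here encode the machinery that copies DNA in S phase, the stage of the cell cycle in which the genome is duplicated. They were taken from a fixed list of gene names, and all 43 were found among the 23004 gene names of the deposited files. RNA came from BEAS-2B cells, a human bronchial epithelial line that the labels call immortalized, left untreated or treated with 100 µM for 48 h. The treatment label gives the dose without the compound, and the series title and design name formaldehyde. Each group held 2 libraries, numbered replicate 1 and 2 in the labels, which do not say whether these came from separate cultures. The p-values therefore rest only on how these libraries vary, and that variation may be technical. Levels are in FPKM, the fragment number of a transcript divided by its length and by the library's depth, as deposited by the authors and summed here over the transcripts of a gene.

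Replication starts at origins, where the origin recognition complex, CDC6 and CDT1 load the ring of MCM2 to MCM7 in G1. CDC45 and the GINS complex turn that ring into the active helicase, and primase, DNA polymerases, the sliding clamp PCNA and its loader RFC then copy both strands. Many of these genes are transcribed by E2F factors, which the retinoblastoma protein holds back until cyclin-dependent kinases release them at the entry to S phase. BEAS-2B cells were immortalized with a virus that carries the SV40 T antigen, a protein that binds both the retinoblastoma protein and p53, and this limits the line as a model of that control.

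The promoter sequences are shown because E2F sites are the feature many of these genes are known to share. RefSeq promoters (GRCh38.p14, from 250 bases before to 50 bases after the start of transcription) were found for 37 of the 43 genes. The letters TTTCCCGC, TTTGGCGC, TTTCGCGC or TTTGCCGC, which spell an E2F site, were searched on both strands, and a word that overlapped another was still counted. At least 1 of these words was present in 20 of the 37 genes (54.1%), against 3.99% of all 27305 genes with a promoter. In a list of other replication genes the share was 14 of 35 with a promoter (40.0%), and in a mitosis list 3 of 29 (10.3%). A gene with several windows was counted if any of them held a word. The CCAAT box, spelled CCAAT, was present in 23 of the 37 (62.2%), against 39.7% of all. It was also present in 20 of the 35 other replication genes (57.1%) and in 24 of the 29 mitosis genes (82.8%). TTTGAA or TTCGAA, the CHR element known from mitotic promoters, was present in 2 of the 37 (5.41%), against 19.5% of all. The share was 5 of the 35 other replication genes (14.3%) and 24 of the 29 mitosis genes (82.8%). A match is a string of letters in this window and does not show that a factor binds there.

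The stretches below, which end at the base before the start of transcription, show how these words are placed in some of these genes. None of the genes shown passed the test of formaldehyde against untreated libraries given further below. The stretches are written 5′ to 3′ on the strand of the gene, with the E2F words and CCAAT boxes of either strand in capitals. MCM6 (chr2:135876444-135876655, minus strand) had the largest difference of the helicase genes, and its stretch holds 4 E2F words in 2 overlapping pairs. POLA1 (chrX:24693721-24693917, plus strand) and LIG1 (chr19:48170345-48170464, minus strand) are genes whose formaldehyde libraries both lay below the untreated ones. E2F1 (chr20:33686386-33686478, minus strand) encodes an E2F factor itself, and TIPIN (chr15:66356686-66356805, minus strand) is a gene whose formaldehyde libraries both lay above. PCNA (chr20:5126623-5126741, minus strand) had the highest level of the 43.
MCM6: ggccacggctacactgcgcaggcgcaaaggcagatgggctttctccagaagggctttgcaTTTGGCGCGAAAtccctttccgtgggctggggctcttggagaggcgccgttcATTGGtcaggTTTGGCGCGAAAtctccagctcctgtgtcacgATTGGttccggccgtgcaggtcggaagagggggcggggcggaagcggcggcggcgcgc
POLA1: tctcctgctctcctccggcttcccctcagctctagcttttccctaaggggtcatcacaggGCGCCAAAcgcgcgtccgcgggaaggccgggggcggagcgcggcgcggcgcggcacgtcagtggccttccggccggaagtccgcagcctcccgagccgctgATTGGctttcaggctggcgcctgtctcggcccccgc
LIG1: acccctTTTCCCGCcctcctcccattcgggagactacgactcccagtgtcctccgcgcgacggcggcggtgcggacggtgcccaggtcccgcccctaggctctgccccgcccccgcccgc
PCNA: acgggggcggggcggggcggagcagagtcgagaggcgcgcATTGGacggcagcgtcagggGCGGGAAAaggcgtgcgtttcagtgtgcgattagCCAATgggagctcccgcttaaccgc
E2F1: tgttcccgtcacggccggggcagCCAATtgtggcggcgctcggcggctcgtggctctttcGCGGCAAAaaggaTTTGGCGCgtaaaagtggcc
TIPIN: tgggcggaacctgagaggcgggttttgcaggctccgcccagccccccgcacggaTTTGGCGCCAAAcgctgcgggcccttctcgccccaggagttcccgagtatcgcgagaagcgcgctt

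The median was less negative with an E2F word over all libraries and in replicate 1, and nearly equal in replicate 2. The 20 genes with a word had a median log2 difference of -0.12 between formaldehyde and untreated libraries, and the 17 genes without one had a median of -0.18. In replicate 1 the medians were -0.24 and -0.39, and in replicate 2 they were 0.08 and 0.09. These are descriptions of chosen genes, without a test.

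Depth, recovered from the deposited coverage and interval values, ranged from 14.2 M (formaldehyde replicate 1) to 26.5 M (untreated replicate 2) fragments, where M stands for 1e6. Of the simple epithelial keratins, KRT8, KRT18 and KRT7 were abundant and KRT19 stayed at or under 0.38 FPKM. KRT8 was at 291 and 290.4 FPKM without and 447 and 416 FPKM under formaldehyde, KRT18 at 226 and 206 against 358 and 418 FPKM, and KRT7 at 191 and 140.1 against 531 and 319 FPKM. The 4 epithelial markers of 7 that were tested, EPCAM included, were all higher in both replicates (31.2% of all genes), with a median log2 fold change of 0.70. KRT19 and CDH1, too low to be tested, were lower in both replicates. KRT19 was at 0.09 and 0.38 against 0.06 and 0.05 FPKM, and CDH1 at 0.17 and 0.63 against 0.06 and 0.12 FPKM. Of the 3 mesenchymal markers tested, VIM was at 782 and 642 against 1043 and 786 FPKM, COL1A1 at 279 and 568 against 137 and 254 FPKM, and PDGFRB at 21.8 and 29.97 against 7.40 and 22.2 FPKM. None of the epithelial and mesenchymal markers tested passed (limma adjusted p = 0.9999), and their part in the replication result was not tested. The label of bronchial epithelium has limits, since KRT5, a marker of airway basal cells, was listed at 0 in every library, CDH1 stayed at or under 0.63 FPKM, and the 6 markers of differentiated airway or alveolar cells found summed to at most 0.53 FPKM. Of 7 leukocyte markers, PTPRC stayed at or under 0.02 FPKM, CD3E was listed at 0, and the summed level was 18.3 and 31.2 FPKM without and 51.7 and 32.6 FPKM under formaldehyde.

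All 43 replication genes passed the filter of a mean of at least 1 FPKM. Their mean levels ranked from the 32.1 percentile (POLE2) to the 98.2 percentile (PCNA) of the genes tested. The lowest single value was 5.46 FPKM, for CCNE1 in untreated replicate 1. PCNA led with a mean of 324 FPKM over the 4 libraries, followed by TK1 at 199.8, TYMS at 174 and MCM7 at 157 FPKM. POLE2, a small subunit of polymerase epsilon, stood last at 6.08 FPKM. Summed over the 43 genes, the level was 2593 and 2287 FPKM in untreated replicates 1 and 2, against 2042 and 2474 FPKM in the treated ones. The groups overlapped, because the formaldehyde libraries held both the lowest sum and the second highest.

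**Figure D1:**
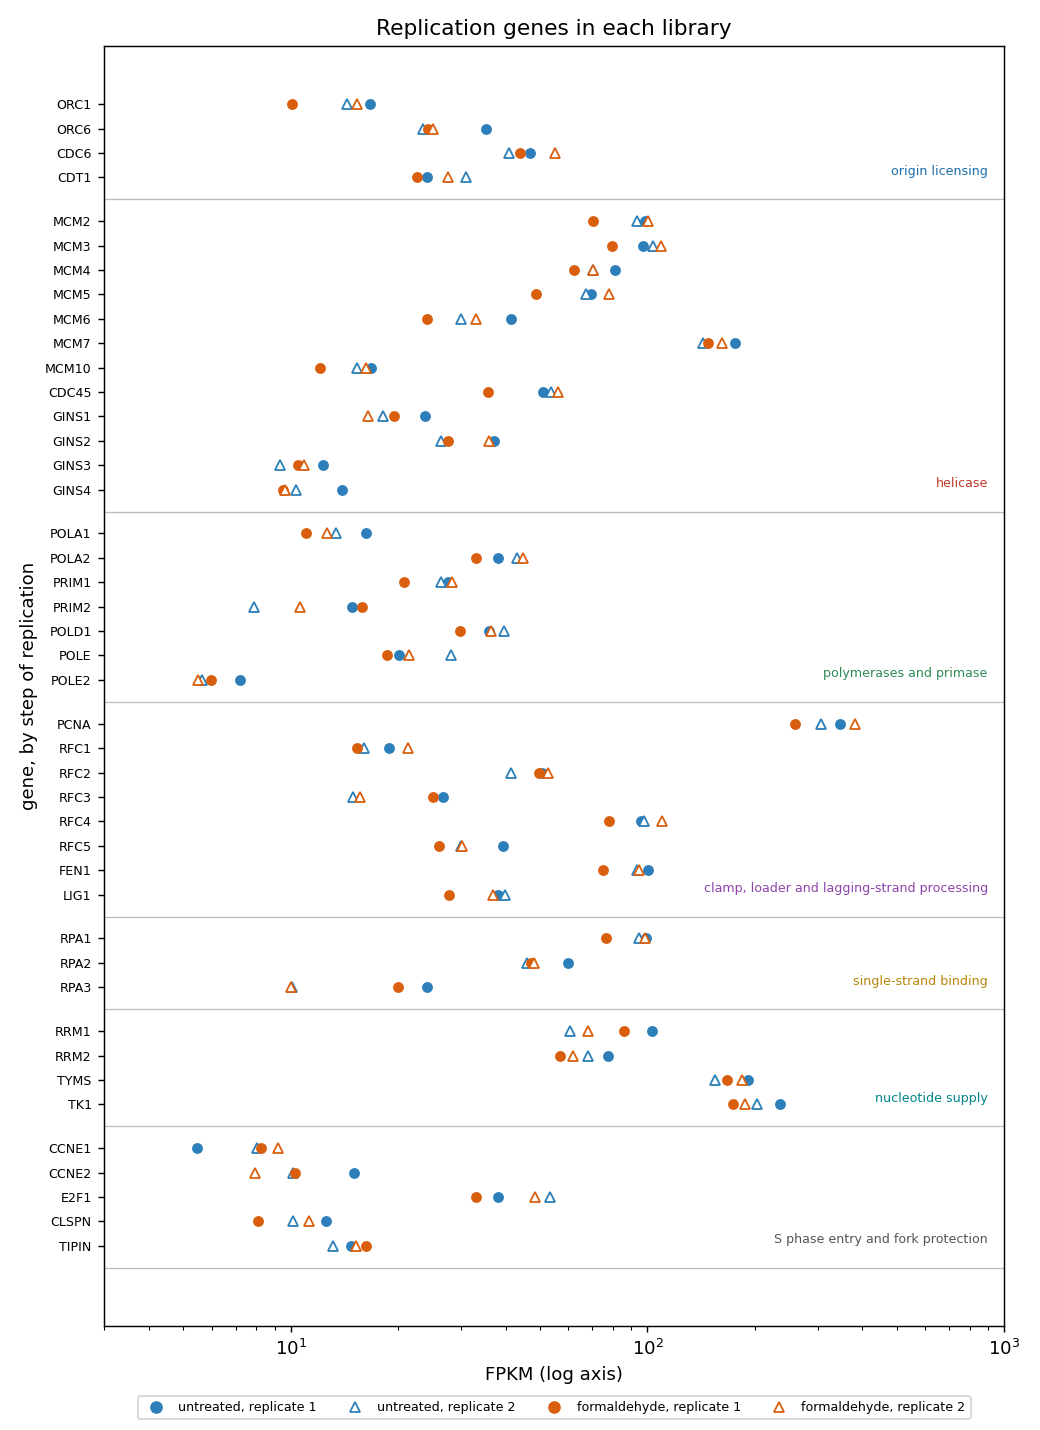
FPKM (log axis) of each of the 43 replication genes, grouped by step, in the 4 libraries: blue for untreated and orange for formaldehyde, filled circles for replicate 1 and open triangles for replicate 2. Formaldehyde replicate 1 is the lowest of the 4 libraries in 26 genes and formaldehyde replicate 2 in 4.

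Most replication genes were lower with formaldehyde in replicate 1 and not in replicate 2. In replicate 1, 40 of the 43 genes were lower with formaldehyde than in the untreated library of the same number (93.0%, against 53.5% of the 12407 genes tested), with a median difference of -0.34 in log2(FPKM + 1), where that of all genes was -0.03. In replicate 2, 14 of the 43 were lower (32.6%, against 37.3% of all genes), with a median of 0.07 where that of all genes was 0.095. The same 14 were lower in both replicates (32.6%, against 22.6% of all genes), and 3, PRIM2, CCNE1 and TIPIN, were higher in both (6.98%, against 31.2%). After median-ratio scaling the counts were 40 and 20 (53.1% and 44.6% of all genes), with medians of -0.34 and 0.0005. After scaling to equal FPKM sums they were 40 and 16 (61.6% and 43.6% of all genes). Against the untreated library of the other number, 26 of the 43 were lower in formaldehyde replicate 1 (43.1% of all genes) and 26 in formaldehyde replicate 2 (50.5% of all genes). In RNA from bulk cultures, fewer cells in S phase and less of each RNA per cell cannot be told apart.

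**Figure D2:**
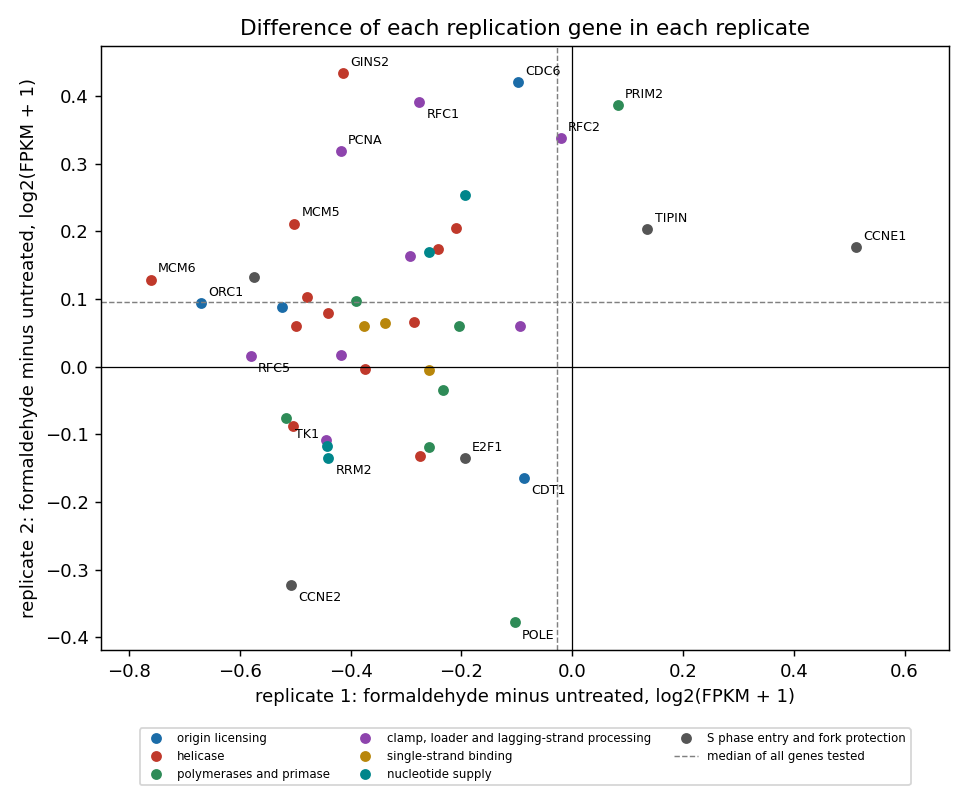
Difference between the formaldehyde and the untreated library of replicate 1 (x axis) and of replicate 2 (y axis), in log2(FPKM + 1), 1 point per gene coloured by step; dashed lines mark the medians of all genes tested. In replicate 1, 40 genes lie left of 0, and in replicate 2, 14 lie below 0.

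Across both replicates no gene of the 43 passed the test. Values on the log2(FPKM + 1) scale were compared with limma, a linear model with variances shared over all 12407 genes, and 0 of the 43 had an adjusted p under 0.05, against 0.153% of all genes. None had an unadjusted limma p under 0.05 either, against 2.76% of all genes. The median log2 fold change of the 43 was -0.15, with 35 negative and 8 positive (81.4% negative, against 44.9% of all genes), and the median of all genes was 0.03. The groups did not overlap, with formaldehyde lower, in 6 genes, MCM4, GINS4, POLA1, LIG1, RRM2 and TK1 (14.0%, against 10.7% of all genes), and with formaldehyde higher in 2, CCNE1 and TIPIN (4.65%, against 16.2%). After median-ratio scaling these counts were 10 and 1, beside 12.8% of all genes below, and after scaling to equal FPKM sums 11 and 1, beside 14.6%. Without formaldehyde replicate 1 the median became -0.0057 and without formaldehyde replicate 2 it became -0.31. Without untreated replicate 1 it was -0.09 and without untreated replicate 2 it was -0.22. The sign turned in 15 and 6 genes without formaldehyde replicate 1 and 2, and in 9 and 7 genes without untreated replicate 1 and 2. The test recovered 0% of 2-fold and 42.5% of 4-fold changes in simulated libraries, where only genes of higher level were changed. The largest difference of the 43, that of CCNE2, was -0.42.

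The replicates of a group often lay further apart than the groups. In 39 of the 43 genes the larger gap between 2 libraries of a group exceeded the difference between the groups (90.7%, against 83.3% of all genes). The exceptions were POLA1, RRM2, TK1 and TIPIN.

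The deposited intervals show how far counting error reaches. For the 27 genes with 1 transcript they gave 160 to 10352 fragments per library, a counting error (2 SD, as the intervals are built) of 15.8% to 1.97%. In replicate 1 the intervals of 21 of the 27 genes lay wholly lower with formaldehyde (22.0% of the 6702 genes tested with 1 transcript) and that of 1, CCNE1, higher (18.4%). In replicate 2, 6 were lower (15.3%), CDT1, POLD1, POLE, TK1, CCNE2 and E2F1, and 9 were higher (36.0%). Between the 2 untreated libraries, 15 genes were lower in replicate 2 (39.8%) and 7 higher (22.7%). Between the 2 formaldehyde libraries, 5 were lower in replicate 2 (24.0%) and 18 higher (25.3%). TIPIN was apart in none of the 4 comparisons, and its counting error was 10.3% to 12.7% per library. These intervals cover counting error only.

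Licensing, the loading of the helicase at origins, was represented by 4 genes. ORC1 (chromosome 1, hg19, 52838501 to 52870143), the large subunit of the origin recognition complex, stood at 16.7 and 14.3 FPKM in the untreated replicates 1 and 2, then 10.1 and 15.4 FPKM in the treated ones, an order kept below. Only formaldehyde replicate 1 lay apart, and the log2 fold change was -0.29 ± 0.26 (SE), which turned to 0.20 when only the highest transcript was used. For ORC6, the smallest subunit, the values were 35.2 and 23.5 FPKM without and 24.2 and 25.02 FPKM under formaldehyde, so that untreated replicate 1 was the library apart (-0.22 ± 0.26, and 0.06 without that library). CDC6, the ATPase that recruits the helicase (chromosome 17, 38444146 to 38459413), stood at 46.9 and 40.8 FPKM without and 43.8 and 54.9 FPKM under formaldehyde (0.16 ± 0.22). It was the only one of the 4 with a positive difference. CDT1, its partner in loading, ran from 22.6 to 31.1 FPKM (-0.13 ± 0.23). The limma adjusted p was 0.9999 for each of the 43 genes, so it is not repeated.

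The helicase step held 12 genes, and 11 had a negative difference, with a median of -0.18 and of -0.43 and 0.09 in replicates 1 and 2. MCM6, a subunit of the ring (chromosome 2, hg19, 136597196 to 136634011), was at 41.4 and 30.07 FPKM without and 24.04 and 32.97 FPKM under formaldehyde, for a log2 fold change of -0.32 ± 0.27. Its difference was -0.76 in replicate 1, the lowest of the 43, and 0.13 in replicate 2. MCM2 (chromosome 3, 127317253 to 127341278) also had its lowest value in formaldehyde replicate 1, but its highest in formaldehyde replicate 2, at 98.1 and 93.3 FPKM without and 70.1 and 100.3 FPKM under formaldehyde (-0.19 ± 0.25, and 0.07 without formaldehyde replicate 1). MCM4 was at 81.0 and 70.6 FPKM without and 62.2 and 70.4 FPKM under formaldehyde (-0.19 ± 0.21). It counts among the genes without overlap, though untreated replicate 2 and formaldehyde replicate 2 were nearly equal.

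Subunits of the MCM2 to MCM7 ring, which assemble in equal number, had unequal messenger RNA levels. MCM6 was the lowest and MCM7 the highest in every library, and the ratio of MCM7 to MCM6 was 4.23 and 4.77 untreated and 6.16 and 4.91 with formaldehyde. MCM7 shares exon positions with AP4M1 on the other strand, which stood at 4.72 to 5.19 FPKM against at least 143.5 FPKM for MCM7. MCM3 ran from 79.3 to 109 FPKM and MCM5 from 48.6 to 78.1 FPKM, each with its lowest value in formaldehyde replicate 1.

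The factors that activate the ring include CDC45, MCM10 and the GINS complex. CDC45 was at 51.0 and 53.7 FPKM without and 35.8 and 56.1 FPKM under formaldehyde (-0.22 ± 0.28), and MCM10, a factor of helicase activation, at 16.8 and 15.4 against 12.1 and 16.3 FPKM (-0.18 ± 0.23). GINS4 was lower in both formaldehyde libraries, at 13.9 and 10.3 FPKM without and 9.49 and 9.64 FPKM under formaldehyde (-0.30 ± 0.22). GINS1 was at 23.8 and 18.1 against 19.5 and 16.5 FPKM, so that its untreated replicate 2 lay between the formaldehyde libraries. GINS2, the highest of the 4, and GINS3 had differences near 0 (0.01 ± 0.27 and 0.00 ± 0.22), and GINS2 turned negative after median-ratio scaling (-0.02).

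Among the 7 genes of polymerases and primase, 6 had a negative difference, and the median was -0.15, with -0.23 in replicate 1 and -0.03 in replicate 2. POLA1, the catalytic subunit of the polymerase that starts each strand (chromosome X, hg19, 24712064 to 25015102), was at 16.2 and 13.4 FPKM without and 11.02 and 12.6 FPKM under formaldehyde (-0.30 ± 0.21). All its formaldehyde values lay below all its untreated values. POLE, the catalytic subunit of the leading-strand polymerase, was at 20.07 and 28.2 FPKM without and 18.6 and 21.4 FPKM under formaldehyde (-0.24 ± 0.24), with untreated replicate 2 apart from the others. Without that library the difference was -0.0068. Its difference was -0.10 in replicate 1 and -0.38 in replicate 2, the lowest of the 43 in that replicate. POLD1, the catalytic subunit of the lagging-strand polymerase, ran from 29.8 to 39.7 FPKM (-0.19 ± 0.21).

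Primase, with subunits PRIM1 and PRIM2, makes the short RNA primers. PRIM1 was at 27.6 and 26.4 FPKM without and 20.8 and 28.3 FPKM under formaldehyde (-0.15 ± 0.23). PRIM2 was at 14.9 and 7.87 FPKM without and 15.8 and 10.6 FPKM under formaldehyde (0.23 ± 0.37), so that replicate 1 was high in both groups. Its sign turned without untreated replicate 2 (-0.19) and without formaldehyde replicate 1 (-0.03). POLA2 ran from 33.03 to 44.9 FPKM and POLE2 from 5.49 to 7.20 FPKM, with a difference of -0.13 ± 0.22 that was 0.19 with the highest transcript alone.

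The clamp and its loader, with the enzymes that finish the lagging strand, gave 8 genes with a median of -0.06, and of -0.36 and 0.11 in replicates 1 and 2. PCNA, the ring that holds the polymerase on DNA (chromosome 20, hg19, 5095599 to 5107268), was at 347 and 306 FPKM without and 259.6 and 382 FPKM under formaldehyde (-0.05 ± 0.29, and 0.23 without formaldehyde replicate 1, 0.04 without untreated replicate 1). The formaldehyde libraries were thus the lowest and the highest of the 4. PCNA shares exon positions with PCNA-AS1 on the other strand, listed at 298 and 243 FPKM without and 378 and 231 FPKM under formaldehyde. Without a stated strand setting, reads of the pair cannot be told apart. The PCNA promoter printed above is the more upstream of 2 RefSeq windows, whereas 96.0% to 97.0% of the PCNA level was assigned to the transcript with the more downstream start. The more downstream window held CCAAT boxes but no E2F word, so PCNA counts among the genes with a word only through the upstream window.

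RFC loads the clamp with 5 subunits. RFC5 was at 39.4 and 29.9 FPKM without and 26.0 and 30.3 FPKM under formaldehyde (-0.28 ± 0.23, and 0.15 when only the highest transcript was used), and RFC4, the highest, at 95.7 and 98.0 against 78.0 and 109.8 FPKM. RFC4 shares exon positions with EIF4A2 on the other strand, which was higher, at 206 to 235 FPKM. As for PCNA, reads of this pair cannot be told apart without a stated strand setting. RFC1, the large subunit, was at 18.8 and 16.05 against 15.4 and 21.4 FPKM (0.06 ± 0.24), and RFC2 at 50.5 and 41.5 against 49.7 and 52.7 FPKM (0.16 ± 0.21). RFC3 followed the replicate number, at 26.7 and 15.0 FPKM without and 24.99 and 15.7 FPKM under formaldehyde.

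LIG1, the ligase that joins Okazaki fragments (chromosome 19, hg19, 48618703 to 48673560), was at 38.2 and 39.8 FPKM without and 27.8 and 36.9 FPKM under formaldehyde (-0.28 ± 0.22). Its groups did not overlap, with formaldehyde replicate 1 well apart. FEN1, the nuclease that trims those fragments, was at 100.4 and 93.5 against 74.9 and 94.7 FPKM (-0.20 ± 0.22), with formaldehyde replicate 2 inside the untreated range.

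RPA coats the single strands at the fork, and its 3 subunits all had negative differences of -0.16 to -0.13. RPA1 was at 99.3 and 94.5 FPKM without and 76.3 and 98.5 FPKM under formaldehyde (-0.16 ± 0.23), and RPA2 at 59.98 and 46.02 against 47.2 and 48.2 FPKM (-0.14 ± 0.22). RPA3 was at 24.1 and 10.05 FPKM without and 19.9 and 10.01 FPKM under formaldehyde. The larger gap of RPA3 was 1.18 in log2 between the untreated libraries, beside a group difference of -0.13 ± 0.51.

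Of the 4 genes of nucleotide supply, the enzymes that make the building blocks of DNA, RRM2 and TK1 were lower in both formaldehyde libraries. RRM2, the small subunit of ribonucleotide reductase (chromosome 2, hg19, 10262695 to 10271546), was at 77.7 and 68.2 FPKM without and 56.99 and 62.02 FPKM under formaldehyde (-0.29 ± 0.20). TK1, the thymidine kinase of S phase (chromosome 17, 76170160 to 76183285), was at 236 and 203 FPKM without and 173 and 187 FPKM under formaldehyde (-0.28 ± 0.22). In both genes the order was the same, with untreated replicate 1 highest and formaldehyde replicate 1 lowest. Their differences were -0.44 and -0.44 in replicate 1 and -0.13 and -0.12 in replicate 2.

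RRM1, the large subunit, and TYMS, which makes thymidylate, had differences near 0. RRM1 was at 103 and 60.6 FPKM without and 85.7 and 68.2 FPKM under formaldehyde, so that replicate 1 was high in both groups (-0.04 ± 0.32, and 0.33 without untreated replicate 1, 0.12 without formaldehyde replicate 2). TYMS was at 191 and 154 against 167 and 184 FPKM (0.03 ± 0.23), which was -0.0014 after median-ratio scaling. TYMS shares exon positions with ENOSF1 on the other strand, at 9.06 to 14.9 FPKM.

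The last 5 genes act at the entry to S phase or protect the fork. CCNE1 and CCNE2 encode cyclin E, the partner of CDK2 at the start of S phase, and they differed in opposite directions. CCNE1 (chromosome 19, hg19, 30302901 to 30315215) was at 5.46 and 8.02 FPKM without and 8.23 and 9.19 FPKM under formaldehyde (0.34 ± 0.25), with untreated replicate 1 well below the rest. CCNE2 was at 15.05 and 10.2 FPKM without and 10.3 and 7.92 FPKM under formaldehyde (-0.42 ± 0.27, and -0.15 without untreated replicate 1). CCNE2 shares exon positions with INTS8 on the other strand, which was at 12.7 to 14.4 FPKM, and without a stated strand setting their reads cannot be told apart. The groups of CCNE2 overlapped only by the near-equal values of untreated replicate 2 and formaldehyde replicate 1, and its difference was negative in both replicates (-0.51 and -0.32). Neither passed the test, and the difference between the 2 genes was not tested.

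E2F1, a transcription factor of the E2F family (chromosome 20, hg19, 32263292 to 32274210), was at 38.02 and 53.2 FPKM without and 33.1 and 48.4 FPKM under formaldehyde (-0.16 ± 0.29, and 0.10 without formaldehyde replicate 1, 0.07 without untreated replicate 2). Here replicate 2 was high in both groups. CLSPN, the adaptor of the replication checkpoint, was at 12.5 and 10.2 against 8.08 and 11.2 FPKM (-0.22 ± 0.25). TIPIN, which stabilizes stalled forks with its partner TIMELESS, was at 14.7 and 13.1 FPKM without and 16.3 and 15.3 FPKM under formaldehyde (0.17 ± 0.19). It was one of the 3 genes higher with formaldehyde in both replicates.

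**Figure D3:**
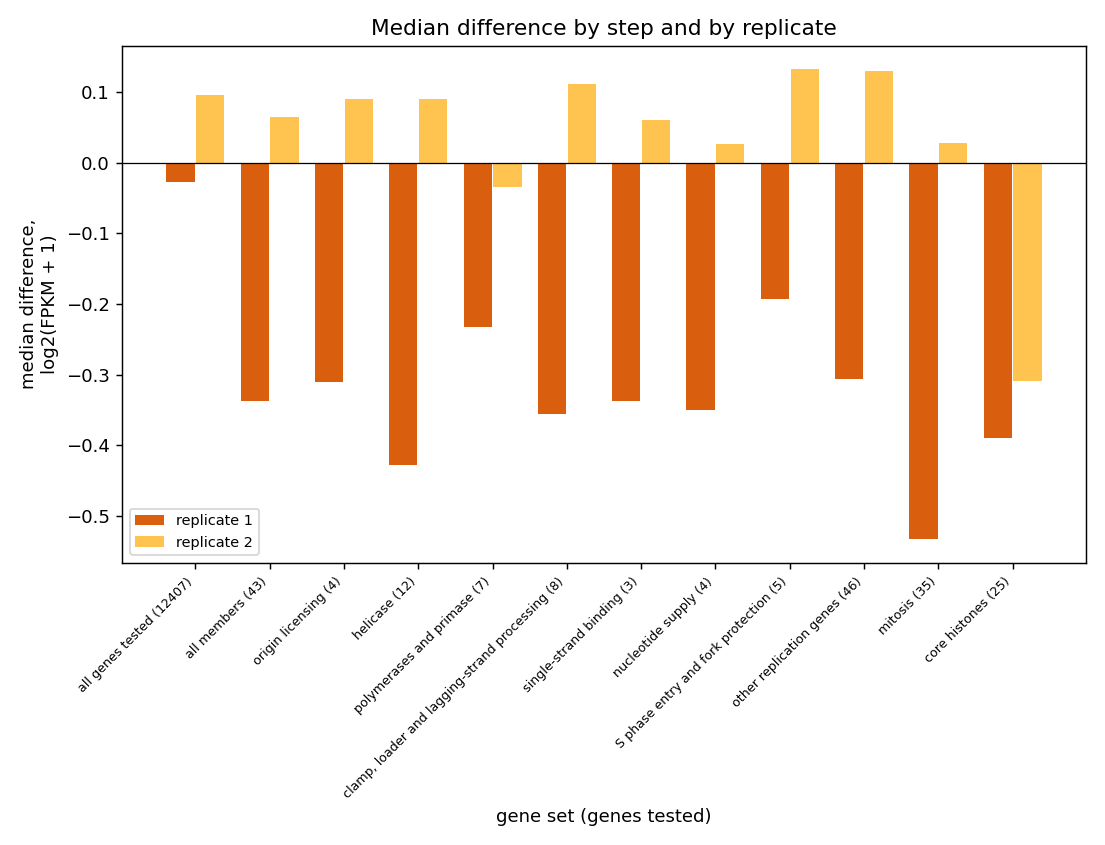
Median difference between formaldehyde and untreated libraries in log2(FPKM + 1) for replicate 1 (dark bars) and replicate 2 (light bars), over all genes tested, the 43 replication genes, each step and 3 lists for comparison; the number of genes is in brackets. The 43 genes stand at -0.34 and 0.07, and core histones are negative in both replicates.

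For the rest of the pathway, a list of 46 other replication genes was used. All 46 were tested, and 0 passed by limma, against 0.153% of all genes. Only 1, E2F8, had an unadjusted limma p under 0.05, against 2.76% of all genes. Of the 46, 29 had a negative difference (63.0%, against 44.9% of all genes), with a list median of -0.10. Their medians were -0.31 in replicate 1 and 0.13 in replicate 2. Both formaldehyde libraries lay below the untreated ones in 11 (23.9%, against 10.7% of all genes) and above in 3 (6.52%, against 16.2%). E2F8, a repressor among the E2F factors, was at 7.35 and 7.75 FPKM without and 3.74 and 4.76 FPKM under formaldehyde (-0.71 ± 0.21, limma unadjusted p = 0.0214, adjusted p = 0.9999). E2F2 was at 3.72 and 5.18 against 1.39 and 3.31 FPKM (-0.75 ± 0.36). SAMHD1, which degrades deoxynucleotides, was at 28.7 and 19.7 FPKM without and 34.1 and 35.6 FPKM under formaldehyde (0.53 ± 0.25). For comparison, 35 mitosis genes had medians of -0.53 and 0.03 in replicates 1 and 2, and 25 tested core histone genes, which are made in S phase, had medians of -0.39 and -0.31. Differences between these lists and the 43 genes were not tested.

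CDKN1A stood apart in formaldehyde replicate 1, the library in which most replication genes were lowest. The summed level of a list of nuclear or small RNAs did not, though some of its genes were highest there. CDKN1A, the inhibitor of cyclin-dependent kinases that p53 induces, was at 31.8 and 48.9 FPKM untreated but 355 and 49.5 FPKM under formaldehyde. The 8 genes found of a list of 12 nuclear or small RNAs summed to 324 and 748 FPKM without and 641 and 424 FPKM under formaldehyde. NEAT1 made up most of that sum, at 218 and 596 against 485 and 335 FPKM. Of the 6 tested, 3 were highest in formaldehyde replicate 1 (3268 of all 12407 genes), 2 in untreated replicate 2 and 1 in untreated replicate 1. Those 3 were RMRP (26.2 and 14.5 against 56.9 and 4.33 FPKM), RPPH1 (8.18 and 6.83 against 11.7 and 0.98 FPKM) and SNHG15 (15.6 and 11.5 against 25.9 and 20.9 FPKM). The library order of the list sum was untreated replicate 2, formaldehyde replicate 1, formaldehyde replicate 2 and untreated replicate 1 from high to low. That was not the reverse of the order of the 43 genes, but untreated replicate 1 was lowest for the list sum and highest for the replication genes. Within replicate 1 the median of the 6 tested was 0.59 and within replicate 2 it was -1.04. The part of CDKN1A or of these RNAs in the replication result was not tested.

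**Figure D4:**
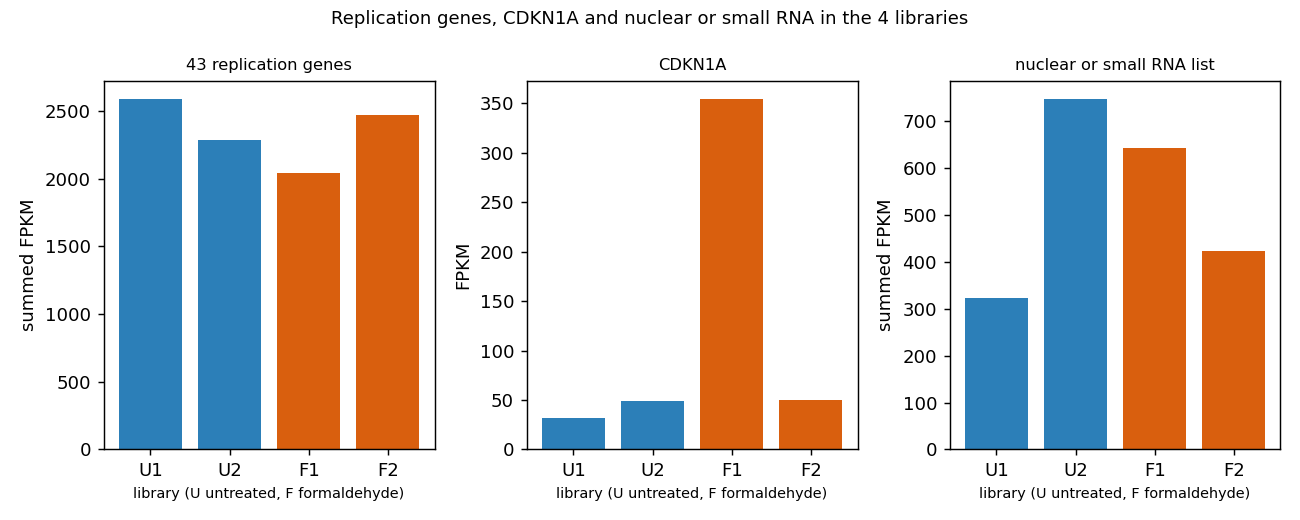
Summed FPKM of the 43 replication genes (left), FPKM of CDKN1A (middle) and summed FPKM of the 8 nuclear or small RNAs found (right) in untreated (blue) and formaldehyde (orange) libraries, each bar 1 library. The replication sum is lowest, at 2042 FPKM, in the library where CDKN1A is highest, at 355 FPKM.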

How the data were processed

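Total RNA of 4 libraries was extracted with Trizol, per the labels, and sequenced on an Illumina HiSeq, per the series design. Per the submitters' processing notes, the tools were Cufflinks 2.0.2, STAR 2.5.2 and FastQC 0.10.0 and the build hg19 (GRCh37). The sources used here do not state a strand setting, trimming or the handling of multi-mapped reads. The authors deposited 1 Cufflinks annotation per library, whose attributes give FPKM, a counting interval and coverage for 40255 transcripts. Transcripts without a gene name (894, 1.07% to 1.31% of FPKM) were left out, and FPKM were summed per gene name.

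Genes with a mean of at least 1 FPKM (12407) entered limma 3.58.1 (R 4.3.3) as log2(FPKM + 1) (mean trend, no covariate, two-sided, Benjamini-Hochberg over all genes, threshold 0.05). FPKM were not rescaled, and the log scale understates differences of low genes. No count test was run. With 2 libraries a group the smallest two-sided exact permutation p is 0.333. Fragment numbers were recovered from the deposited upper bounds, with a read length of 51 nt from a regression over genes with 1 transcript. Simulated data of all 12407 genes, with 200 changed by known folds, served to check the test. The 200 were drawn from genes of higher level only. Each gene varied by its own SD, estimated from 2 libraries a group, so the recovery may differ from that in the real data. Promoters are from RefSeq (GRCh38.p14), matched by symbol, and no coordinates were converted between builds. Figures were drawn with matplotlib 3.10.9 in Python 3.11.15.

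The members, steps, lists, tests and alternatives were chosen with earlier results of these data known. Values in every library are given for genes whose groups do not overlap, the 2 of each step with the largest difference, and PCNA, RRM2, MCM2, CDC6, CCNE1 and E2F1, and, for the list of other replication genes, the 4 with the largest moderated t, of which 1 is not reported here. Genes named beyond these were chosen after their values were seen.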

Additional observations from a re-analysis of the deposited data

How the results depend on the processing

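No replication gene passed under any of the alternatives tried, which were a pseudocount of 0.1 FPKM, no filter, a mean of at least 5 FPKM, median-ratio or FPKM-sum scaling, the highest transcript of each gene, no mean trend, the replicate block and each library left out. The smallest limma adjusted p of the 43 genes was 0.6765, with the replicate block, and ranged up to 1 elsewhere. Over all genes, 19 passed, 0 without a filter, 29 with the replicate block and 46 to 62 with a library left out, where the lone library of a group is assumed to vary like the others. The median of the 43 genes was -0.147 also with the block and ran from -0.3059 to -0.0057 with a library left out. With the highest transcript alone, 5 of the 43 genes turned their sign. The genes with both formaldehyde libraries below both untreated ones numbered 10 after median-ratio and 11 after FPKM-sum scaling, against 6, and those above numbered 1 after either scaling, against 2. Deviations of libraries with the same number correlated at 0.25 over all genes and at 0.71 over the 43 replication genes. The labels do not say that a number marks a shared culture or day, so the main limma fit did not pair the libraries. The differences given by replicate do match libraries by number, and are descriptions that depend on that matching. Counts of genes lower in each replicate under other settings were added after seeing the data. They were 39 to 40 in replicate 1 (52.5% to 61.6% of all genes) and 14 to 20 in replicate 2 (37.3% to 44.6%). With 2 libraries a group, none of the 2-fold changes in the simulated libraries were called. The absence of calls therefore does not show that these genes were unchanged.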

Other observations

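For some replication genes with several transcripts, the share that Cufflinks assigned to each transcript followed the replicate number more than the treatment. In RFC5, the transcript NM_007370 held 92.4% of the FPKM in untreated replicate 1 and 93.8% in formaldehyde replicate 1, but 45.1% and 9.15% in the replicates numbered 2. In CDC45, NM_003504 held 66.5% and 71.7% in the libraries numbered 1 and 38.9% and 48.0% in those numbered 2. POLE2 did not follow this, since NM_001197331 held 88.2% in formaldehyde replicate 2 and 35.3% to 44.6% in the others. In RRM2, the longer transcript NM_001165931 held 48.9% in formaldehyde replicate 1 and 30.8% to 33.6% in the other libraries. These genes were chosen after their values were seen. No test of the shares was made.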
